A study of Drosophila melanogaster with 3 samples.

Results

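The genes for the proteins of the small subunit of the cytosolic ribosome were examined for peaks of Knirps in the fruit fly embryo. They were chosen by name, as the protein-coding genes whose symbol is RpS followed by a digit, together with sta. The gene once called sop is RpS2 in the annotation used here. Genes of the mitochondrial ribosome and of the kinases of RpS6 were left out. This gave 39 genes of the 13945 protein-coding genes on the 6 large chromosome arms. The rule used names only, although the set was proposed with earlier results of these data known. The embryos came from a transgenic line that carries a fusion of Knirps (kni) with eGFP at its C-terminal end, and an antibody against GFP was used for chromatin immunoprecipitation with sequencing (ChIP-seq). Whole embryos of both sexes, 0 to 14 h old, formed 1 group of 3 replicates that the labels call biological, with no second genotype, treatment or age. All cells and ages of the embryo were therefore mixed in every sample. A sample without the fusion protein was not analysed here, so Knirps and any other source of signal with this antibody cannot be told apart at these genes.

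Ribosomal protein genes are among the most highly transcribed genes of growing cells, and the proteins are needed in equal numbers in each ribosome. In Drosophila, many of them start transcription at a pyrimidine-rich initiator, the TCT element, in place of the common initiator. Loss of 1 copy of many of these genes gives the Minute phenotype of slow growth and thin bristles. Knirps is a zinc-finger repressor of the nuclear receptor family and is known for its part in the segmentation of the embryo.

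The promoters that carry the results are shown first. Each sequence runs from 90 bases before to 20 bases from the start of the canonical transcript, so that base 91 of 110 is the first transcribed base. They are read 5′ to 3′ on the strand of the gene from the RefSeq sequence of Release 6 (dm6). Capitals mark TATCGATA, the DNA replication-related element (DRE), and the word CTTTT or CTTTC of the TCT element within 5 bases of the start. The first set holds RpS27, with the strongest peak of all 39 genes and neither marked word, and 3 genes with both words and a peak of the optimal list.
RpS27, chr3R:25247495-25247604, minus strand: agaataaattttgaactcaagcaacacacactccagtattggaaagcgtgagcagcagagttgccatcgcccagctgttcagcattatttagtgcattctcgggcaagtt
RpS25, chr3R:11216268-11216377, minus strand: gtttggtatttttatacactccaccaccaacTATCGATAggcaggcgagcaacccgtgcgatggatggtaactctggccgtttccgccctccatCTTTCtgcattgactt
RpS7, chr3R:30208923-30209032, minus strand: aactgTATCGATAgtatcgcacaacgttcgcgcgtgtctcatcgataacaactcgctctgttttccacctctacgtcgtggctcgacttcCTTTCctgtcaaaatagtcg
RpS6, chrX:7901312-7901421, minus strand: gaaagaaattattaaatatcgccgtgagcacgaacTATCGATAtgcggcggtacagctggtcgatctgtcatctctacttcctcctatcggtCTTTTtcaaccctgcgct

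The second set holds 4 pairs of paralogs, in which the first copy had a peak of the optimal list within 500 bp of its start and the second had none in that list. RpS5a and RpS5b carried the same TCT word, whereas in the RpS10 pair a DRE was present in RpS10b only and in the RpS28 pair neither copy had a marked word. In the RpS19 pair a TCT word was present in RpS19a only. Another such pair, RpS15Aa and RpS15Ab, is not printed. Both of its copies had a DRE, and RpS15Aa alone had a TCT word.
RpS10b, chrX:19597950-19598059, plus strand: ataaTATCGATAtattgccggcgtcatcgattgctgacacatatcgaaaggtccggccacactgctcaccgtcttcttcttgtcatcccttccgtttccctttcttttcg
RpS10a, chr3R:27652670-27652779, plus strand: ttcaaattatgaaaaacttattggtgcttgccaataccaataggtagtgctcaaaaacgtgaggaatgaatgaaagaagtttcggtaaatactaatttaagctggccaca
RpS5a, chrX:17148245-17148354, minus strand: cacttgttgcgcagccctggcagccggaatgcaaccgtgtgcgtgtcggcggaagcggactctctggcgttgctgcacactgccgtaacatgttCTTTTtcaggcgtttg
RpS5b, chr3R:14901544-14901653, minus strand: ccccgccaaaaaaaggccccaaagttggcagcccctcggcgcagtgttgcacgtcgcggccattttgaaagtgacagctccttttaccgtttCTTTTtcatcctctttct
RpS19a, chrX:16637804-16637913, plus strand: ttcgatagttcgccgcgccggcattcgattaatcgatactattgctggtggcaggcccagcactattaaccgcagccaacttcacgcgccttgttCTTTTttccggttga
RpS19b, chr3R:23933511-23933620, minus strand: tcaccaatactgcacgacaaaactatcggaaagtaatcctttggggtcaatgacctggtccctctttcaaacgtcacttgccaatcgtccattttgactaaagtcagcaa
RpS28b, chrX:9554533-9554642, plus strand: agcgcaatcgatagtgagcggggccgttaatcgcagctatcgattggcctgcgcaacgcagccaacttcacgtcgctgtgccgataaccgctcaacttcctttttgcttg
RpS28a, chr3R:30022629-30022738, minus strand: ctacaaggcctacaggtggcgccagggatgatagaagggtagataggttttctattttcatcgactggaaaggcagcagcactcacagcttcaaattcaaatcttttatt

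The third set holds 3 genes without a peak of the optimal list, each with a TCT word at its start. RpS3 encodes a protein at the entry of the mRNA channel, RpS26 encodes a protein at its exit, and RpS27A encodes a fusion of ubiquitin with a ribosomal protein.
RpS3, chr3R:23358722-23358831, plus strand: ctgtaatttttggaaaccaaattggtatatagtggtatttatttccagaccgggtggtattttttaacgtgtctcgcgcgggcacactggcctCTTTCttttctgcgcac
RpS26, chr2L:18443209-18443318, minus strand: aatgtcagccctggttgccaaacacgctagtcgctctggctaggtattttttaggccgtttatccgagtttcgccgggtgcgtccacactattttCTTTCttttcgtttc
RpS27A, chr2L:10408262-10408371, plus strand: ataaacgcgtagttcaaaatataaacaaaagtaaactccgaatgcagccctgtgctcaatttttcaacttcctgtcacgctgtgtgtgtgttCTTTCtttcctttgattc

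Of the 39 small subunit genes, 26 had a summit, the highest point of a peak, within 500 bp of one of their own start sites in the optimal list. This is 66.7% (Wilson 95% interval 51.0% to 79.4%), against 18.4% of all protein-coding genes, or 2568 of 13945. The optimal list holds the 7129 peaks that the authors kept by the agreement of the replicates. The same count was made in each replicate among its strongest 7129 peaks. Replicate 1 had 24 such small subunit genes, replicate 2 had 24 and replicate 3 had 27, a mean of 25 ± 1.73 (SD, n = 3). The shares of all genes in these lists were 18.9%, 17.6% and 19.1%. In every replicate the share of small subunit genes was thus above that of all genes by far more than the replicates differed. All 3 replicates had a summit at 22 small subunit genes (56.4%), against 12.3% of all genes. The intervals cover counting error over genes only, and the number of reads behind each list is unknown.

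The genes of the large subunit (RpL) had much the same share. An optimal summit was found at 26 of 39 small subunit genes and at 37 of 54 large subunit genes (68.5%, interval 55.3% to 79.3%). The intervals of both subunits overlap nearly whole, and no difference between them is called. Genes of the mitochondrial ribosome had a summit in 18 of 73 cases (24.7%, interval 16.2% to 35.6%). Those of initiation and elongation factors (eIF and eEF) had one in 16 of 52 cases (30.8%, interval 19.9% to 44.3%).

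**Figure D1:**
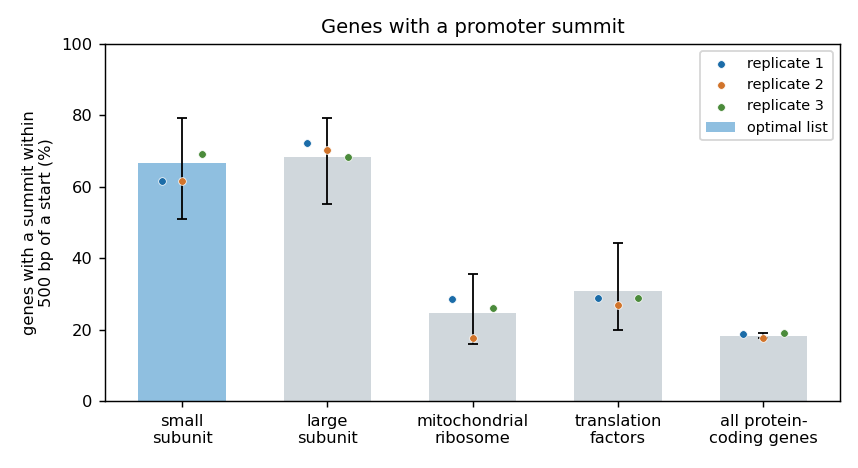
Share of genes (%) with a summit within 500 bp of an own start, for the small subunit genes (n = 39), large subunit genes (n = 54), mitochondrial ribosome genes (n = 73), translation factor genes (n = 52) and all protein-coding genes (n = 13945). Bars give the optimal list with Wilson 95% intervals and points the 3 replicates (strongest 7129 peaks each). The small subunit bar stands at 66.7%, beside 68.5% for the large subunit and 18.4% for all genes.

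The share depended on how deep a list was read. In the pooled list of 30000 peaks, which includes background by design, 32 of 39 small subunit genes had a summit (82.1%), against 38.8% of all genes. In the full lists of all 3 replicates, 31 did, against 30.8% of all genes. Only 3 of the 39 had no summit in the full list of any replicate.

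The strongest summit of the set lay at RpS27, which encodes a zinc-finger protein of the body of the subunit. It ranked 36, 50 and 40 in replicates 1, 2 and 3 and 38 in the optimal list, where rank 1 is the highest signal value. Its summit in the optimal list, chr3R:25247515 on dm6, was 1 bp upstream of the annotated start of the RpS27 gene (FBgn0039300). In the replicates the summit lay at +6, +4 and 0 bp from this start, where plus is downstream. RpS27 thus held both the strongest and one of the most precisely placed summits of the set, with an SD of 3.06 bp over the replicates. A weaker second summit of rank 1799 lay 206 bp upstream of it, beyond the start of the neighbouring gene Nup37, which is 144 bp away.

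RpS10b, for a protein near the mRNA entry of the head, ranked 294, 351 and 226 in replicates 1 to 3 and 291 in the optimal list. RpS25, for a protein of the head, ranked 314, 464 and 353, and 357 in the optimal list. RpS5a, for a protein of the head near the mRNA exit, ranked 569, 556 and 624, and 532 in the optimal list. Each of these 3 genes ranked within a narrow range in all 3 replicates. Their signal values in the optimal list were 841 for RpS10b, 782 for RpS25 and 675 for RpS5a, against 1567 for RpS27. The scale of that value is not stated, and the lowest in the optimal list is 188.

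RpS28b, for a small protein at the mRNA exit, ranked 564, 1251 and 414 in the replicates and 643 in the optimal list. RpS4, for a protein of the body, ranked 992, 753 and 683, and 698 in the optimal list. RpS21 ranked 1551, 1427 and 582, and 946 in the optimal list. The ranks of RpS4 lay close together, whereas those of RpS28b and RpS21 spread more than RpS4 did. RpS19a, whose human counterpart is mutated in Diamond-Blackfan anaemia, ranked 878, 2187 and 948, and 1098 in the optimal list. RpS7, needed in yeast for making the small subunit, ranked 1274, 1964 and 1135, and 1286 in the optimal list. RpS16, for a protein whose tail reaches the tRNA site, ranked 1379, 2643 and 892, and 1294 in the optimal list. In each of these last 3 genes and in RpS28b the summit ranked lowest in replicate 2.

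**Figure D2:**
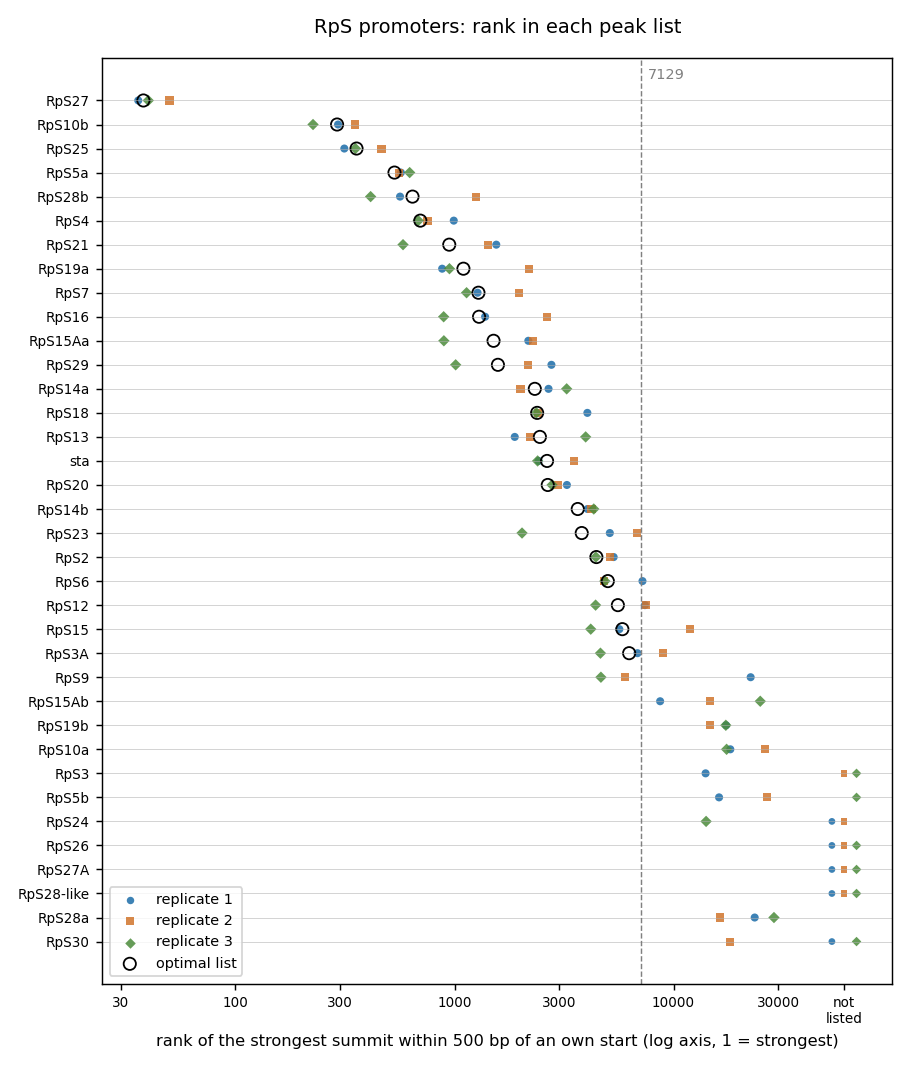
Rank of the strongest summit within 500 bp of an own start for 36 of the 39 small subunit genes (log axis, 1 is the highest signal value) in replicates 1 to 3 and, as open circles, in the optimal list. The dashed line is rank 7129, and points at the right edge are genes with no summit in that list. RpS27 stands apart at ranks 36 to 50, and 12 of the genes shown have no open circle.

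A further group of genes had ranks from 1578 to 4441 in the optimal list. RpS29, for a small zinc-finger protein of the head, ranked 2769, 2158 and 1012 in replicates 1, 2 and 3. RpS23, for a protein of the decoding centre, ranked 5115, 6839 and 2033. In both genes the summit was strongest in replicate 3. RpS18, for a protein of the head that contacts the large subunit, ranked 4040, 2394 and 2366. RpS13, for a protein of the body, ranked 1883, 2209 and 3968, and RpS20 ranked 3258, 2976 and 2788. For RpS13 replicate 3 was the weakest, so no replicate was the strongest throughout. The gene sta, for the counterpart of the mammalian laminin receptor precursor, ranked 2420, 3506 and 2395. RpS2, for a protein near the mRNA entry, ranked 5326, 5104 and 4418. The ranks of RpS2 lay close together in all 3 replicates.

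Over the 26 genes with an optimal summit, the median rank was 2354, from 38 to 6268, against a median of 3247.5 for the 2542 other genes with one. Expressed as a percentile among genes with a promoter summit, where 100 is the strongest, the members' median was 62.4 in the optimal list and 64.8 ± 1.4 over the replicates (SD, n = 3). Of the 26, 18 were above the median gene. The highest percentiles were 99.5 for RpS27, 94.5 for RpS10b, 93.3 for RpS25 and 90.5 for RpS5a. In the longer pooled list, 32 small subunit genes had a median rank of 2654.5 and a median percentile of 79.9, against a median rank of 7656 for other genes. The rank difference thus depended on how deep a list was read. Over the 26 genes, Spearman's rho between the ranks of replicate 1 was 0.916 with replicate 2 and 0.903 with replicate 3, and that of replicate 2 with replicate 3 was 0.837. These values only describe the order of the genes, which share the embryos and libraries. The optimal list was kept by the agreement of these same replicates, so the values are not independent of that choice.

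Some calls near rank 7129 changed between replicates. RpS12, which in flies marks Minute cells for competition, ranked 7397, 7447 and 4405 and so passed in replicate 3 only. RpS15, for a protein of the head near the decoding centre, ranked 5654, 11833 and 4186. RpS6, the target of the S6 kinase, ranked 7210, 4826 and 4854. Each was in the weaker part of the optimal list, RpS12 at rank 5567, RpS15 at rank 5836 and RpS6 at rank 5009. RpS3A, on chromosome 4, ranked 6842, 8919 and 4635 and was the weakest member of the optimal list at 6268. RpS9, for a protein at the mRNA entry, ranked 22477, 5992 and 4658. RpS9 was found among the strongest peaks of replicates 2 and 3 but missed the optimal list, with rank 11070 in the pooled list.

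Of the 13 genes without an optimal summit, 12 had none among the strongest peaks of any replicate. RpS26, RpS27A and RpS28-like had no summit within 500 bp of a start in any full list. Their nearest summits in replicates 1, 2 and 3 were 2243, 34150 and 1783 bp away for RpS26, 1140, 2140 and 20030 bp for RpS27A and 696, 695 and 694 bp for RpS28-like. The summit by RpS28-like was a weak one, with ranks 22964, 18211 and 12306, and it lay outside the window by nearly the same distance in each replicate. RpS24 had one in replicate 3 only, at rank 14072, and RpS30, which is made as a fusion with a ubiquitin-like protein, in replicate 2 only, at rank 18099. RpS3 had a summit in replicate 1 at rank 13998, and at rank 24063 in the pooled list. None of these 3 genes had a summit in more than 1 replicate.

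The window of 500 bp decided 1 gene. RpS28a had an optimal summit of rank 779 578 bp downstream of its start, which is beyond the end of this gene of 304 bp and on the side away from its divergent neighbour Axn. Among the genes inside the window, the farthest was RpS20, for a protein of the head, with a summit 161 bp upstream of its start.

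Paralogs differed from each other in most pairs. In 5 of the 6 lettered pairs 1 copy had an optimal summit and the other had none. RpS10b ranked 294, 351 and 226 in the replicates, against 18153, 26054 and 17456 for RpS10a. RpS5a ranked 569, 556 and 624, against 16127 and 26581 for RpS5b in replicates 1 and 2 and none in replicate 3. In both pairs the ranks of the copies did not overlap, although those of RpS10a and RpS5b spread widely between replicates. RpS28b ranked 564, 1251 and 414, against 23451, 16242 and 28716 for RpS28a. RpS19a ranked 878, 2187 and 948, against 17356, 14680 and 17314 for RpS19b. The weak summit of RpS19b lay 417, 391 and 416 bp downstream of its start, inside the gene. In replicate 2 a weaker summit, of rank 20694, lay 91 bp from the start. RpS15Aa, for a protein of the body, ranked 2172, 2284 and 894, against 8680, 14620 and 24863 for RpS15Ab. The summits of RpS15Ab were weak but lay 42, 16 and 8 bp upstream of its start. In the RpS14 pair, for a protein of the platform, both copies had an optimal summit. RpS14a ranked 2686, 2001 and 3250, against 4047, 4220 and 4321 for RpS14b. These neighbours on the X chromosome thus kept the same order in all 3 replicates.

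**Figure D3:**
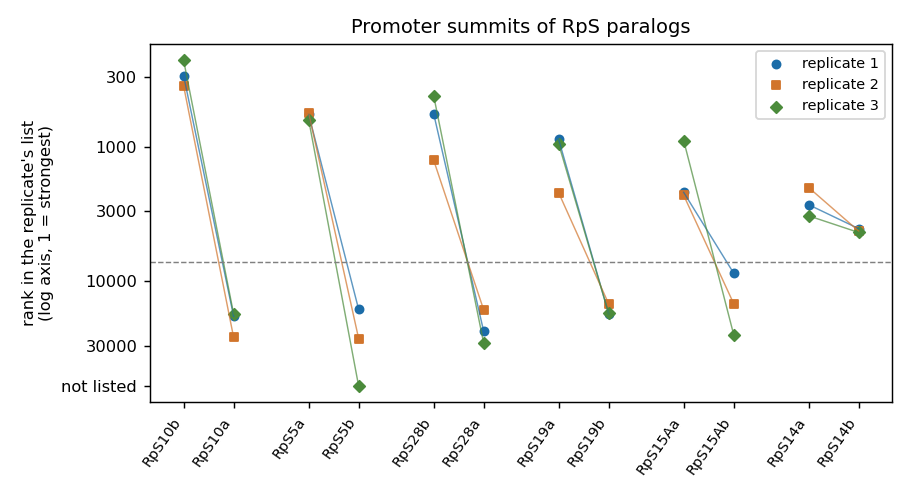
Rank of the strongest promoter summit of each paralog in replicates 1 to 3 (log axis, 1 is the strongest). Lines join the copies within a replicate, and the dashed line is rank 7129. In 5 pairs the first copy lies above the line and the second below it in every replicate, whereas RpS14a and RpS14b both lie above it.

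The coding sequences of the pairs were alike at 98.2% of positions for RpS15Aa and RpS15Ab, 97.8% for RpS14a and RpS14b and 78.2% for RpS5a and RpS5b. The RpS28b and RpS28a sequences matched at 76.9%, those of RpS10b and RpS10a at 74.0% and those of RpS19a and RpS19b at 66.7%. Around the start, over 100 bp on either side, the copies matched at 43.6% to 52.0% of positions, within the 38.1% to 53.7% of 31 pairs of unrelated small subunit genes. In each of these pairs the copies were thus more alike in their coding sequence than around their starts. The printed windows of RpS10b and RpS10a are an example. RpS28b and RpS28-like matched at 52.8% in the coding sequence and at 45.6% around the start. The unrelated pairs were compared around the start only. How the authors placed reads that match both copies is not given in the sources used here, which bears mostly on RpS15Aa, RpS15Ab, RpS14a and RpS14b.

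Within the promoter, the summits of the small subunit genes lay close to the start. The median offset of the 26 strongest optimal summits was −6.5 bp, where minus is upstream, with quartiles of −33.0 and 12.8 bp and a range of −161 to 52 bp. For the 2542 other genes with an optimal promoter summit the median was −93.5 bp. Within 100 bp of a start lay 25 of the 26 small subunit summits (96.2%), against 35.7% of those of other genes. Within 50 bp these shares were 80.8% and 17.9%, and within 25 bp 46.2% and 9.24%. The nearest own start was used, and 17 of the 26 genes have several, which can shorten the distance. With canonical starts only, 23 of the 26 lay within 100 bp, and no such share is given for other genes. All 26 summits were nearer to a start of the small subunit gene itself than to that of any other protein-coding gene. The narrow placing was found in every replicate, where on average 94.7% ± 1.85 of small subunit summits lay within 100 bp, against 36.1% ± 0.721 of the others (SD, n = 3 each).

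The median offset itself moved between replicates, at −33.5, −20.5 and −4.0 bp in replicates 1, 2 and 3. For a single gene the SD of the offset over the replicates had a median of 26.9 bp and ranged from 1.15 bp in RpS14b to 77.7 bp in RpS15. Small differences in offset between genes are therefore within the spread of the replicates. Of the 26 genes, 17 had the summit upstream of the start, 1 at it and 8 downstream. In 13 of the 26 the replicate offsets spanned at most 50 bp. Among the 31 genes with a summit in every full list, 4 spanned over 100 bp. These were RpS14a with −57, −100 and −190 bp, RpS15 with 179, 42 and 47 bp, RpS10a with −478, −315 and −266 bp and RpS28a with −170, 381 and −326 bp. The last 2 are genes without an optimal summit, and in RpS28a even the side of the start changed.

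**Figure D4:**
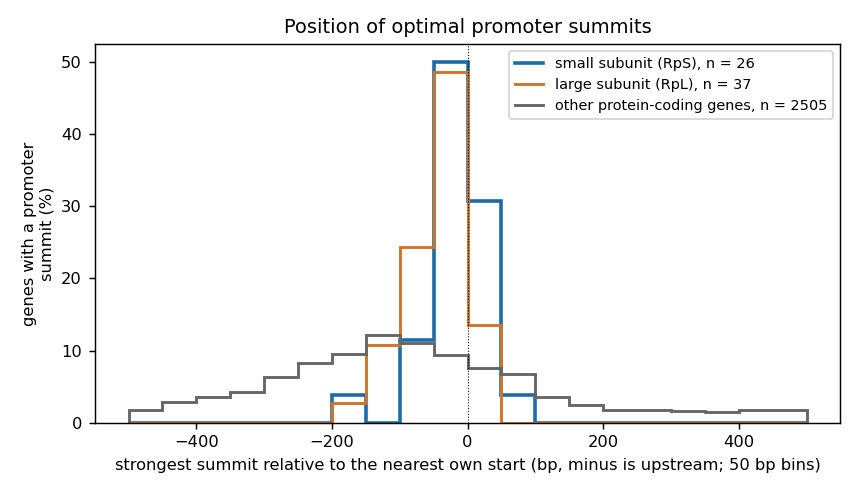
Position of the strongest optimal summit relative to the nearest own start (bp, minus is upstream, bins of 50 bp), as a share (%) of the genes with a promoter summit, for small subunit genes (n = 26), large subunit genes (n = 37) and other protein-coding genes (n = 2505). The small subunit summits crowd between −50 and 50 bp, whereas the other genes spread over the whole window.

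The large subunit genes were placed likewise, though with a median farther upstream. Within 100 bp lay 96.2% of small subunit summits and 86.5% of large subunit summits, and the medians were −6.5 bp and −30.0 bp. The shift of the small subunit median between replicates was as large as this difference. Summits at mitochondrial ribosome genes had a median of −180.0 bp with 22.2% within 100 bp, and those at translation factor genes a median of −13.5 bp with 56.2%. Small subunit peaks had a median width of 460.5 bp, against 520 bp for large subunit genes and for other genes. The value of 460.5 bp is the midpoint of widths of 401 bp and 520 bp and belongs to no peak. A width of 520 bp, the most common one, was found in 13 of the 26 small subunit genes, in 20 of the 37 large subunit genes (54.1%) and in 75.1% of all genes outside the small subunit.

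The shares of the genes for both regions of the subunit had overlapping intervals. Of the genes for the head of the subunit 12 of 19 had an optimal summit (63.2%, interval 41.0% to 80.9%). Of those for the body and platform 14 of 20 did (70.0%, interval 48.1% to 85.5%). Genes with a paralog had one in 7 of 13 cases (53.8%, interval 29.1% to 76.8%). Single-copy genes had one in 19 of 26 cases (73.1%, interval 53.9% to 86.3%), so these intervals overlap too. The share of all protein-coding genes was 18.4%.

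All 9 small subunit genes on the X chromosome had an optimal summit, against 16.4% of all X genes. On the autosomes 17 of 30 did (56.7%), against 18.8% of all autosomal genes. The X-linked genes are RpS5a, RpS6, RpS10b, RpS14a, RpS14b, RpS15Aa, RpS19a, RpS28b and sta. Among them are 7 copies of paralog pairs, namely every copy with a summit, whereas each copy without one is autosomal. Chromosome and copy therefore cannot be told apart in these pairs.

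Some small subunit genes lie next to another promoter. In 16 of the 39 (41.0%) the start of another protein-coding gene was within 500 bp, against 30.9% of all genes, and 12 of these had an optimal summit (75%), against 27.2% of all genes with such a neighbour. Without such a neighbour 14 of 23 small subunit genes had a summit (60.9%), against 14.5% of all such genes. The excess over all genes was thus present in both classes. Among the divergent pairs with a summit were RpS13 with CSN8, RpS14a with Dhdds, RpS16 with CG4294, RpS18 with plu, RpS19a with Rok and RpS20 with CG17271. They also included RpS21 with CG3104, RpS25 with CG4820, RpS27 with Nup37 and sta with inc. Of these, the nearest starts of sta and inc are 66 bp apart. The summit of sta was 14 bp downstream of its start at chrX:1483292, whereas the gene begins at chrX:1483413. The nearest starts of RpS16 and CG4294 are 78 bp apart. The summit of RpS16 was 34 bp upstream of its start at chr2R:22606127, whereas the gene begins at chr2R:22605745. In both genes the summit thus lay at a start inside the gene. In every one of the 12 the summit was nearer to the small subunit gene, as stated above for all 26. The 3 divergent pairs without an optimal summit were RpS15Ab with Lsm10, RpS19b with CG5854 and RpS28a with Axn. RpS27A shares its annotated start with Ip259 on the same strand and had no summit either.

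Genes with a summit were longer, with a median of 1449 bp, against 912 bp for those without. More of them, 17 of 26, had several annotated starts, against 3 of 13 without a summit. Each further start widens the window searched, so these counts are not independent of the call. The median length of the 5′ UTR was 88.5 bases in genes with a summit and 76.0 bases in those without. Genes of small nucleolar RNAs, which guide the modification of ribosomal RNA, lay inside 11 of the 26 genes with a summit and 2 of the 13 without. They numbered 40 and 3 in all, and 14 of them lay in RpS5a. Of the 13 genes without a summit, 6 have a paralog, and genes with a paralog were themselves shorter. Their median length was 936 bp, against 1509.5 bp for single-copy genes. Genes of small nucleolar RNAs lay inside 1 of 13 genes with a paralog and 12 of 26 single-copy genes. Values for all protein-coding genes are not given, and no difference by summit is called.

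The sequence at the summits of small subunit genes differed in its short words from that at other genes. Words were searched on both strands within 100 bp on either side of the optimal summit, and a match is a description and not a binding site. TATCGATA, the DRE known to be bound by DREF, was found in 9 of 26 small subunit windows (34.6%, interval 19.4% to 53.8%), against 4.05% of the 2542 windows of other genes. Its core ATCGAT, which lies within it, was found in 12 (46.2%), against 9.83%. These were the words with the widest gaps among the 10 searched, and the intervals of both classes did not overlap. In the large subunit windows both words were frequent too, TATCGATA in 9 of 37 (24.3%) and ATCGAT in 29.7%. In the other direction, GAGAG, known to be bound by the GAGA factor, was found in 3 windows (11.5%, interval 4.0% to 29.0%) and in 16.2% of large subunit windows, against 32.4% of other genes. None of these words set the small subunit apart from the large one by intervals that do not overlap.

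AGAGCA, a core of the known Knirps binding preference, was found in 0 of 26 small subunit windows, which allows a share of up to 11.5%, against 14.4% of the windows of other genes. In large subunit windows it was found in 8.11%. In a fixed window from 250 bases before to 50 bases after the canonical start the gap was smaller and the intervals overlapped. There AGAGCA was found in 3 of the 26 genes (11.5%, interval 4.0% to 29.0%), against 16.2% of other genes with a summit (14.9% to 17.7%). The longer form CTAGAGCA, which contains it, was found in 0 of 26 and in 0.354%. At this number of genes so small a share could not be detected. GTATTTT (motif 6) was found in 23.1% of small subunit windows (interval 11.0% to 42.1%) and in 9.28% of the others (8.22% to 10.5%). In that fixed window its intervals overlapped, with 26.9% (13.7% to 46.1%) and 17.2% (15.8% to 18.7%). The summit intervals overlapped for the remaining words. GGTCACAC (motif 1) was found in 11.5% and 4.17%, and CATCNCT (motif 7) in 19.2% and 11.5% of small subunit and other windows. CAGCTG (E-box) was found in 19.2% and 14.7%, and GATA, which also lies within TATCGATA, in 84.6% and 70.8%. In large subunit windows CAGCTG was found in 0 of 37, which allows a share of up to 8.11%. The small subunit interval was 8.51% to 37.9%, and the Wilson interval of the large subunit, 0.0% to 9.41%, overlaps it slightly. The windows held 44.0% ± 5.04 G and C in small subunit genes and 42.5% ± 8.64 in the others (SD over genes).

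**Figure D5:**
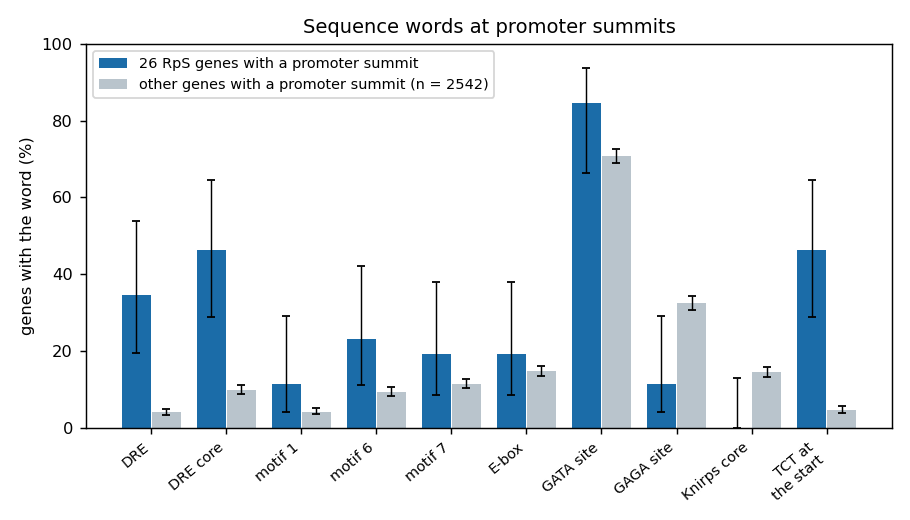
Share (%) of genes with each word, for 26 small subunit genes and 2542 other genes with an optimal promoter summit, with Wilson 95% intervals. Words were searched within 100 bp of the summit, except the TCT element, which was searched at the start. The DRE was found in 34.6% and 4.05% and the TCT element in 46.2% and 4.64%, whereas the Knirps core AGAGCA was found in none of the small subunit windows and in 14.4% of the others.

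Summits of other genes often lie farther from a start, so the words were also counted in the fixed window around the canonical start. There TATCGATA was found in 10 of 26 small subunit genes with a summit (38.5%), in 3 of 13 without (23.1%) and in 8.94% of all genes. GAGAG was found in 4 of 39 (10.3%), against 30.2% of all genes. The DRE was thus frequent in this window too, and it was present in small subunit genes without a summit, RpS15Ab, RpS24 and RpS30. In the genes with both, the DRE was not always at the summit. In RpS25 it was 3 bp from the summit and in RpS13 10 bp, but in RpS6 71 bp. The farthest were RpS29 with 85 bp and RpS16 with 419 bp.

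The TCT element was found at the start of 17 of 39 small subunit genes (43.6%, interval 29.3% to 59.0%), against 3.52% of all genes. It was present in 12 of 26 with a summit (46.2%) and in 5 of 13 without (38.5%). Among other genes with an optimal promoter summit it was found in 4.64%. The large subunit genes had it in 44.4%. All these shares depend on the reach of 5 bases and on the annotated start, and no other reach was tried. RpS10b and RpS28b, counted as without the element, hold one of its words farther downstream in their printed windows. Both the TCT element and the DRE were found in 7 small subunit genes (17.9%), against 0.359% of all genes, and 6 of these 7 had a summit. For the 13 genes without a summit, the intervals for both words overlap those of the 26 with one, and no difference between them is called.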

How the data were processed

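The data were anti-GFP ChIP-seq peak lists in narrowPeak format from 3 replicates of whole embryos of 0 to 14 h, on build dm6 per the labels. The authors deposited 30000 peaks and background regions for each replicate and for the pooled replicates, and an optimal list of 7129 peaks thresholded on the irreproducible discovery rate, per the deposited notes. All were called against a control alignment. What aligned the reads and called the peaks, with which versions and threshold, is not given in the sources used here. Signal, the deposited peak strength on an unstated scale, served only for ranks within a list. The deposited −log10 q value was not used for ranking, because 6876 of the 7129 optimal peaks share its highest value of 4.14. Summits are the deposited offset (another unit, in bp) from the peak start. The lists hold no read counts, so depth is unknown.

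Arm names and peak ends fitted within the lengths of the Release 6 assembly. Start sites came from Ensembl release 115 (19253 distinct starts of protein-coding genes on 6 arms) and sequence from RefSeq. A promoter summit lies within 500 bp of any own start, and the strongest one gives the rank and offset. Replicate lists were limited to their strongest 7129 peaks. Neighbouring starts were counted within 500 bp. Coordinates are 1-based. Python 3.11.15, numpy 2.4.6, pandas 2.3.3, scipy 1.17.1 and biopython 1.88 were used. In simulated peaks, 1000 of 1000 planted summits were called as planted, and the offset was right for all 851 planted within the window. Those planted outside it were right if not called. Only starts with no other start nearby were used, so genes with several starts or a close neighbour were not covered.

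With 1 group and no control samples analysed here, no test between groups was possible. Shares have Wilson 95% intervals and stand beside the share of all genes. The upper limit for a count of 0 is 3 counts of the total. The members, word lists and groups were chosen with earlier results of these data known. Values in each list are given for the 10 members with the strongest summit, paralogs, members without an optimal summit, and members whose calls differ between replicates or whose offsets span over 100 bp. Members that share a promoter with a neighbour are named too. The values of 3 members are not reported here, although the counts include them. Alternatives were the window (250 and 1000 bp), the strongest 3564 peaks, the pooled list, canonical or nearest starts, the full replicate lists, and leaving out each replicate. Peak lists on build dm3 were not used here.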

Additional observations from a re-analysis of the deposited data

How the results depend on the processing

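The count of 26 small subunit genes with an optimal promoter summit was 18 in the strongest 3564 peaks (all genes 10.1%) and 32 in the pooled list (38.8%), and 21 to 23 with each replicate left out in turn (12.1% to 12.6%). The other alternatives gave 26 or 27 (14.6% to 21.5%). The optimal list was made from all 3 replicates and cannot be rebuilt without one. Leaving a replicate out of it meant keeping only its peaks with a summit within 100 bp in the remaining replicates. That is an added filter, so these values do not show the effect of removing a replicate alone. The count of 22 in all 3 replicates was 15 in the strongest 3564 peaks of each replicate (all genes 6.48%), 31 in the full lists (30.8%), and 22 to 24 with a replicate left out (14.0% to 14.5%). The median percentile of 62.4 was 60.8 with a window of 1000 bp, 60.6 in the strongest 3564 optimal peaks, 79.9 in the pooled list and 64.7 with canonical starts only. With each replicate left out it was 62.8 to 65.0. The median offset of −6.5 bp was −26.0 bp in the strongest 3564 peaks, and −26.0 to −12.0 bp with a replicate left out. AGAGCA was found at 0 summits and in 3 promoter windows of the 26 genes. The cause of these shifts was not tested. No paired analysis was possible because all samples form 1 group. Unknown depth and 39 genes limit all shares.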
